A study of Mus musculus with 36 samples.

Results

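Insulin and glucagon signalling in the liver was followed through 10 genes, all of which were present among the 21889 gene symbols of the deposited table: the insulin receptor (Insr), the insulin-like growth factor 1 receptor (Igf1r), the insulin receptor substrates Irs1 and Irs2, the phosphoinositide 3-kinase subunit Pik3r1, the kinases Akt1 and Akt2, the transcription factors Foxo1 and Foxo3, and the glucagon receptor (Gcgr). The genes were taken by symbol and not by a rule on their values, but with earlier results of these data known. They were measured by RNA-Seq in livers of 36 male C57BL/6 mice, 3 at each of 12 ages, namely GD17.5 (a gestational day, labelled Day -2), birth (Day 0), Days 1, 3, 5, 10, 15 and 20 before weaning and Days 25, 30, 45 and 60 after it. Day 0 livers were taken at birth before suckling, pups came from several litters, and mice of Day 25 and older had been weaned. Day 1 livers were taken at a set time after birth, and those of Day 3 and later at a fixed clock time. Time of day can thus differ between these ages. Libraries were made from polyadenylated RNA of whole liver, and each age had its own animals, so that no mouse was followed over time.

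Levels are given as FPKM, the number of fragments relative to exon length and to the size of the library, which is per length and allows levels of different genes to be set side by side. Differences between ages were tested with limma on log2(FPKM + 1) over the 11149 genes that reached a mean of 1 FPKM in at least 1 age, and a gene was called when its Benjamini-Hochberg adjusted p was under 0.05. A log2 fold change on this scale understates the change of genes near or below 1 FPKM. Igf1r passed the filter through GD17.5 alone, where its mean was 1.02 FPKM (SD 0.229, n = 3), and Irs1 through Days 1, 5 and 10. Since a gene that enters through its high ages must differ from its low ones, the tests of Igf1r and Irs1 are given from the same fit with no filter, over all 18601 genes with a value above 0, and the counts over the 10 genes are given from both fits. In bulk liver, fewer cells of a type and less RNA per cell cannot be told apart. Some libraries stood apart from others of their age. Pancreas genes were present in 19 livers, 1 liver of Day 0 had a summed level of 7 skeletal muscle genes of 1273 FPKM against 4.10 and 4.55 in the other two, and Day 30 mouse 1, Day 25 mouse 2 and Day 45 mouse 3 were low in long transcripts.

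Insulin and IGF1 bind related receptor tyrosine kinases, which phosphorylate the IRS adaptors. The adaptors recruit phosphoinositide 3-kinase, whose lipid product activates AKT, and AKT phosphorylates FOXO factors and keeps them out of the nucleus, so that genes of glucose output are less transcribed. Glucagon acts through a G protein-coupled receptor that raises cyclic AMP and activates protein kinase A and CREB, with the opposite effect on glucose output. The liver is a main target of both hormones, and birth and weaning are the ages at which its supply of glucose and fat changes.

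RefSeq promoter sequences (GRCm38.p6) were found for 9 of the 10 genes, in 14 entries, and not for Insr. The 250 bases before the annotated transcription start were searched on both strands for CACGTG (an E-box), TGTTTTG (the core of the insulin response sequence bound by FOXO factors), TGTTTAC (a FOXO site), TGACGTCA (the cyclic AMP response element) and GGGCGG (a GC box). The adaptors are shown because Irs1 and Irs2 were the only genes of the set with an E-box in these windows, which 6.02% of all 32851 promoters hold, and the only ones with TGTTTTG, which 5.56% hold. In both, a TGTTTTG began within 10 bases after the first base of the E-box in the same orientation, an arrangement found in 7 of the 32851 promoters (0.0213%) and looked for after the sequences had been seen. In Irs1 the E-box began 115 bases before the start and overlapped the TGTTTTG that began 111 bases before it, and another TGTTTTG began 32 bases before the start. In Irs2 the E-box began 44 bases before the start and the TGTTTTG 37 bases before it. The Gcgr promoter is shown because Gcgr reached the highest level of the set. Capitals mark the E-box and TGTTTTG in the adaptors and the GC boxes, which lie on the opposite strand, in Gcgr.
Irs1, chr1:82291440-82291689, minus strand: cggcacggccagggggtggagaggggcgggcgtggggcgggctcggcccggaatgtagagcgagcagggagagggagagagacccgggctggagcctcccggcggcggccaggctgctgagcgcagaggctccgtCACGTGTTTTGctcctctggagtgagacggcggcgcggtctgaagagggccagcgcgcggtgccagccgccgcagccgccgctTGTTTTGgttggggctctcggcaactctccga
Irs2, chr8:11008930-11009179, minus strand: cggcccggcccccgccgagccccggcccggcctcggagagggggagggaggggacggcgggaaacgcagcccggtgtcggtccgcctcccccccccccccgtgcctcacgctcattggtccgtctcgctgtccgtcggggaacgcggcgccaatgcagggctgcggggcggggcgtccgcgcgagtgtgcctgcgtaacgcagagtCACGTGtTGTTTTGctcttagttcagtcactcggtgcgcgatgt
Gcgr, chr11:120530477-120530726, plus strand: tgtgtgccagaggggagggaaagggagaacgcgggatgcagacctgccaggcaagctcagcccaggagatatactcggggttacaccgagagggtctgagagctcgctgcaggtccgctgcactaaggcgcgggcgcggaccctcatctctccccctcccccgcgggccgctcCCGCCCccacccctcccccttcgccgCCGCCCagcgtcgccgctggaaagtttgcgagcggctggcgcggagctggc
A GC box was present in 9 of the 14 entries, 1 for each of the 9 genes, against 32.7% of all promoters. TGTTTAC was found in Akt1 (3.17% of all promoters), and TGACGTCA, held by 1.55% of all promoters, in no gene of the set. These matches describe the letters of the windows and say nothing about binding.

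**Figure D1:**
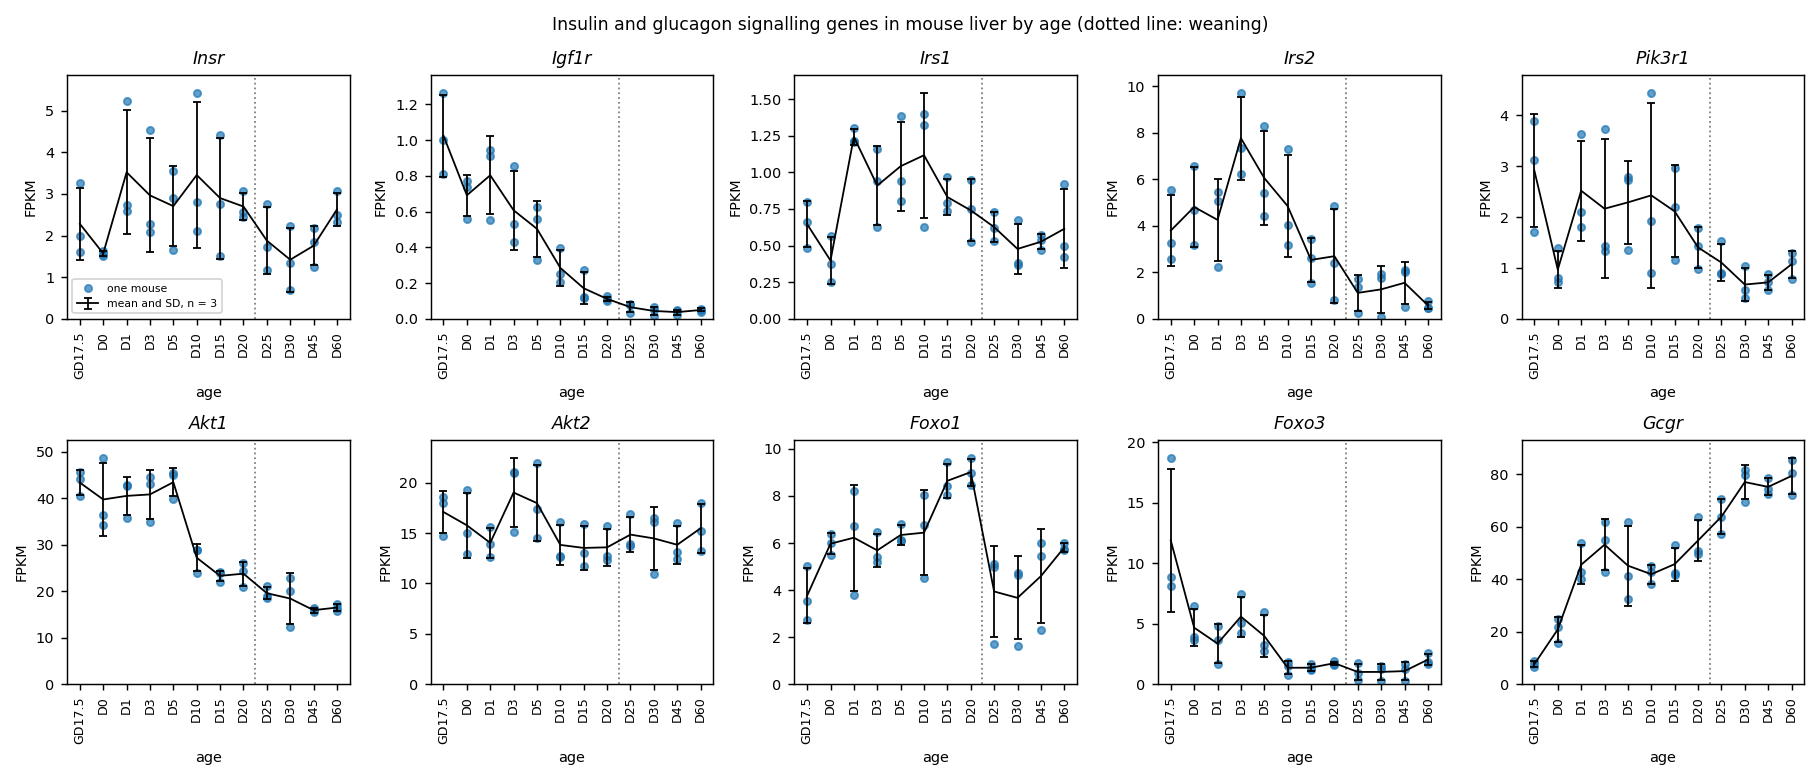
FPKM of the 10 genes in each of 36 livers (blue points) against age, with the mean and SD of 3 mice per age in black and weaning as a dotted line. Gcgr runs from a mean of 7.65 FPKM at GD17.5 to 79.3 at Day 60, Igf1r, Akt1 and Irs2 are lower after weaning than around birth, and Akt2 stays between means of 13.5 and 19.03 FPKM.

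The glucagon receptor had the widest range in absolute level. Gcgr (ENSMUSG00000025127.8, chr11:120392013-120400402 of NCBI37/mm9, plus strand) was at 6.46, 8.92 and 7.56 FPKM in the 3 livers of GD17.5. At birth the 3 livers held 21.9, 15.6 and 24.9 FPKM, and on Day 1 they held 42.6, 53.8 and 40.0 FPKM. These 3 ages did not overlap. From Day 1 to Day 20 all 18 livers lay between 32.3 and 63.7 FPKM, and the 9 livers of Days 30, 45 and 60 lay between 69.4 and 85.5 FPKM. In the order of age means the neighbours Day 0 and GD17.5, Day 10 and Day 0, and Day 45 and Day 25 were separated without overlap, and the other 8 pairs of neighbours were not.

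Both early steps of Gcgr passed the test. Gcgr rose 2.72-fold from GD17.5 to birth (log2 fold change 1.32, SE 0.186, adjusted p = 1.39e-06, limma) and a further 2.18-fold from birth to Day 1 (log2 fold change 1.10, SE 0.186, adjusted p = 5.6e-05, limma). Against Day 60 it was lower at each age from GD17.5 to Day 20, from a log2 fold change of -3.22 at GD17.5 to -0.53 at Day 20. From Day 25 on it was not called, and it was not called from Day 20 to Day 25 (54.7 and 63.8 FPKM, adjusted p = 0.586, limma). The summed FPKM of 8 hepatocyte markers moved with the first of these steps, from 7781 to 9343 at GD17.5 to between 38460 and 47480 at birth, and its part in the rise of Gcgr was not tested. On Day 1 that sum was 41650 to 44990, within its range at birth, and Gcgr was higher in all 3 livers than at birth. The part of hepatocytes in this second rise was not tested either.

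Among the receptor tyrosine kinases, Igf1r (ENSMUSG00000005533.8, chr7:75097713-75371484, plus strand), the receptor of insulin-like growth factor 1, was the gene with the largest relative range. Its 3 livers at GD17.5 held 1.27, 0.999 and 0.811 FPKM. On Day 5 they held 0.626, 0.327 and 0.557 FPKM, and on Day 20 they held 0.0995, 0.125 and 0.110 FPKM. The 12 livers of Days 25 to 60 lay between 0.0182 and 0.0845 FPKM, below all 24 livers of the earlier ages. The highest age mean was 27.4-fold the lowest (1.02 at GD17.5 and 0.0374 FPKM at Day 45). About 7 fragments lay behind the lowest of these values and 386 behind the highest, by the depth estimated from the table, so that the low values carry a large counting error.

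With no filter, Igf1r was higher at each age from GD17.5 to Day 10 than on Day 60, with log2 fold changes from 0.94 to 0.29 and adjusted p of up to 0.0148 (limma). It fell from GD17.5 to birth (log2 fold change -0.26, SE 0.0913, adjusted p = 0.0282, limma with no filter). In the filtered fit that call was lost without GD17.5 mouse 2 (adjusted p = 0.0552) or Day 0 mouse 2 (adjusted p = 0.134). It was also lost there with a pseudocount of 0.1 (adjusted p = 0.114, limma), a common upper quartile (-0.12, adjusted p = 0.265) or a sum of 1000000 (-0.39, adjusted p = 0.0704). Between Day 20 and Day 25 the livers did not overlap (means of 0.111 and 0.0648 FPKM), but on the log2(FPKM + 1) scale the difference of -0.06 was not called.

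The insulin receptor varied less by age and more within ages. Insr (ENSMUSG00000005534.8, chr8:3150922-3279617, minus strand) was at 1.51, 1.57 and 1.63 FPKM at birth and at 5.23, 2.74 and 2.58 FPKM on Day 1. On Day 10 its livers held 5.43, 2.12 and 2.81 FPKM, and on Day 60 they held 2.50, 3.06 and 2.32 FPKM. No pair of neighbouring ages was separated in the order of means. The coefficient of variation within an age had a median of 40.2%, against 32.9% for Igf1r, with nearly the same maximum in both (54.0% and 54.1%). Insr was higher on Day 1 than at birth without overlap, by a log2 fold change of 0.77 (SE 0.298) with an adjusted p of 0.04997 in limma, and leaving out any 1 of the Day 0 mice or Day 1 mouse 1 or 2 ended that call (adjusted p from 0.0548 to 0.274), as did leaving out mice of several other ages. Against Day 60 it was called at no age.

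The substrates Irs1 and Irs2 couple both receptors to phosphoinositide 3-kinase, and they peaked at different ages. Irs1 (ENSMUSG00000055980.2, chr1:82229676-82287991, minus strand) was lowest at birth, at 0.565, 0.376 and 0.252 FPKM, and 1 day later stood at 1.21, 1.22 and 1.30 FPKM. This was a rise of 3.12-fold (log2 fold change 0.69, SE 0.140, adjusted p = 0.000861, limma with no filter) without overlap. Irs1 was higher than on Day 60 on Days 1, 5 and 10 (adjusted p = 0.00476, 0.0452 and 0.0362, limma with no filter), and the 12 livers of Days 25 to 60 lay between 0.370 and 0.921 FPKM.

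Irs2 (ENSMUSG00000038894.6, chr8:10986980-11008458, minus strand) was highest on Day 3, at 7.36, 9.73 and 6.22 FPKM, and lowest on Day 60, at 0.481, 0.485 and 0.766 FPKM. The highest mean was 13.5-fold the lowest, and no pair of neighbouring ages was separated. Irs2 was higher than on Day 60 at each age from GD17.5 to Day 15, with log2 fold changes from 1.13 to 2.46. Its levels spread widely within ages: on Day 20 the 3 livers held 4.86, 0.825 and 2.397 FPKM, and on Day 30 they held 0.0963, 1.93 and 1.78 FPKM.

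The regulatory subunit p85-alpha of phosphoinositide 3-kinase binds the phosphorylated adaptors. Pik3r1 (ENSMUSG00000041417.8, chr13:102450716-102538172, minus strand) was at 3.89, 3.12 and 1.71 FPKM at GD17.5, at 1.38, 0.801 and 0.715 FPKM at birth and at 3.64, 2.10 and 1.81 FPKM on Day 1. Birth was thus lower than both of its neighbours in time without overlap. The fall into birth was called (log2 fold change -0.96, SE 0.307, adjusted p = 0.00995, limma), and so was the rise after it (log2 fold change 0.82, SE 0.307, adjusted p = 0.0424, limma). The fall was not called without GD17.5 mouse 1 (adjusted p = 0.0637), and the rise was lost without Day 0 mouse 2 or 3 or Day 1 mouse 1 or 2 (adjusted p from 0.0596 to 0.214). Against Day 60, Pik3r1 was higher at GD17.5 and on Day 1.

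Akt1 (ENSMUSG00000001729.7, chr12:113892032-113913095, minus strand) and Akt2 (ENSMUSG00000004056.8, chr7:28376571-28425845, plus strand) encode the kinases at the centre of the pathway, and Akt2 is the form best known for the metabolic action of insulin. The 15 livers from GD17.5 to Day 5 held between 34.1 and 48.6 FPKM of Akt1. The livers of Day 10 held 28.8, 28.9 and 23.8 FPKM and those of Day 60 held 15.7, 16.4 and 17.3 FPKM. All livers up to Day 5 were above all livers of later ages. Akt1 was higher than on Day 60 at each age from GD17.5 to Day 20, with log2 fold changes from 1.35 on Day 5 to 0.48 on Day 15.

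Akt2 had no age called against Day 60. Its age means lay between 13.5 FPKM on Day 15 and 19.03 FPKM on Day 3, a range of 1.41-fold, and its single livers between 10.9 and 21.98 FPKM. On Day 60 the 3 livers held 13.2, 15.2 and 18.03 FPKM, so that Akt2 and Akt1 then overlapped.

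The FOXO factors activate genes of glucose output when insulin is low, and their levels followed different courses. Foxo3 (ENSMUSG00000048756.4, chr10:41901647-41996561, minus strand) was at 18.7, 8.08 and 8.85 FPKM at GD17.5 and at 3.65, 3.91 and 6.43 FPKM at birth. It fell between these ages (log2 fold change -1.12, SE 0.333, adjusted p = 0.00598, limma), and the call was lost without GD17.5 mouse 1 (adjusted p = 0.0719). From Day 10 to Day 60 all 21 livers lay between 0.268 and 2.59 FPKM. Against Day 60 it was higher at GD17.5, at birth and on Day 3.

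Foxo1 (ENSMUSG00000044167.5, chr3:52072259-52154031, plus strand) was highest late in suckling. Its livers held 9.46, 8.43 and 8.04 FPKM on Day 15 and 9.62, 8.46 and 8.96 FPKM on Day 20. On Day 25 they held 4.97, 1.72 and 5.12 FPKM and on Day 60 they held 5.73, 6.01 and 5.69 FPKM. Foxo1 fell 2.29-fold from Day 20 to Day 25 without overlap (log2 fold change -1.11, SE 0.297, adjusted p = 0.0175, limma), the only gene of the set called across weaning. The call was lost without Day 25 mouse 2 (log2 fold change -0.73, adjusted p = 0.205), Day 20 mouse 1 (adjusted p = 0.0577) or Day 20 mouse 3 (adjusted p = 0.0565). At no age was Foxo1 called against Day 60.

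**Figure D2:**
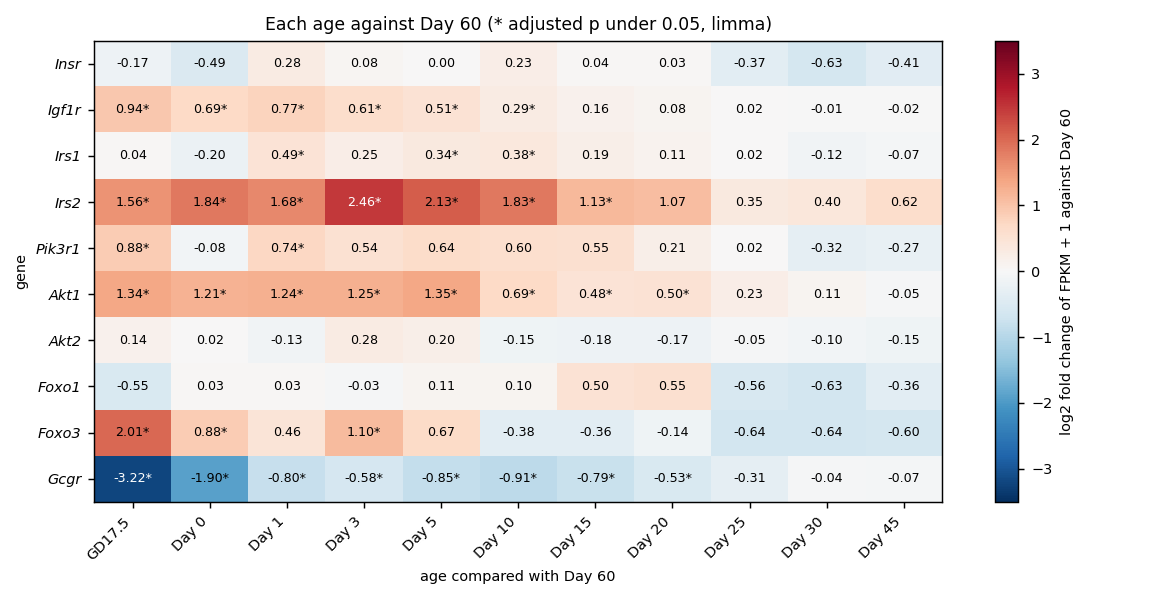
Log2 fold change of FPKM + 1 of each gene (rows) at each of 11 ages (columns) against Day 60, red for higher and blue for lower, with an asterisk where the adjusted p was under 0.05. Gcgr is lower from GD17.5 (-3.22) to Day 20 (-0.53), Akt1 is higher over the same 8 ages, and no gene is called on Days 25, 30 or 45.

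The counts of the set are read against those of all genes. Of the 10 genes, 7 changed in at least 1 age against Day 60, while 90.7% of all tested genes did so (7 and 75.7% with no filter), and the 3 that were not called were Insr (adjusted p = 0.0983), Foxo1 (0.0942) and Akt2 (0.239), from limma over all genes and ages together. By age, 6 were called at GD17.5 (75.1% of all genes), 5 at birth (63.9%), 6 on Day 1 (65% of all genes), 5 on Day 3 (66% of all genes), 5 on Day 5 (65.4%) and 5 on Day 10 (46% of all genes). On Day 15 there were 3 (27.4% of all genes) and on Day 20 there were 2 (15.9%). None was called on Day 25, 30 or 45, for which 7.42%, 3.56% and 0.233% of all genes were called. At an unadjusted p under 0.05, limma gave 2 genes on Day 30 (Insr and Foxo1, both lower) and 0 on Days 25 and 45, and Dunnett's comparison per gene gave 0 on all 3 ages. With no filter the calls of Gcgr on Day 20, Irs2 on Day 15 and Pik3r1 on Day 1 were lost. With scaling to a common upper quartile, the calls of Irs1 on Days 1, 5 and 10, of Pik3r1 at GD17.5 and on Day 1, of Foxo3 at birth and on Day 3 and of Gcgr on Day 20 (adjusted p = 0.0507) were lost, and Akt2 was lower than on Day 60 at GD17.5, on Day 1 and on Day 5.

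Between GD17.5 to Day 5 and Days 25 to 60, 7 of the 10 genes were higher before (70.2% of all genes) and 1 was lower (15.5%), and with no filter 6 were higher (62.6%) and 1 lower (11.1%), Foxo1 being no longer called (adjusted p = 0.0604). Akt1 was 2.36-fold higher (log2 fold change 1.204, SE 0.0735, adjusted p = 3.33e-15, limma), Irs2 4.74-fold (1.59, SE 0.194, adjusted p = 1.28e-08) and Igf1r 14.9-fold in FPKM (0.71 on the log2(FPKM + 1) scale, SE 0.0433, adjusted p = 4.02e-14 with no filter), each without overlap between the 15 and the 12 livers. The share of all genes without such overlap is not given, so this lack of overlap does not set these genes apart. Foxo3 was higher by a log2 fold change of 1.497, Pik3r1 by 0.68, Foxo1 by 0.31 (adjusted p = 0.0455) and Irs1 by 0.22 (adjusted p = 0.00378 with no filter). The call of Foxo1 was lost without Day 25 mouse 2 (0.21, adjusted p = 0.133), Day 30 mouse 1 (0.21, adjusted p = 0.13) or Day 45 mouse 3 (0.22, adjusted p = 0.126), and without any of several mice of other ages, and with those 3 mice left out together it was 0.03 (adjusted p = 0.765). With the length and GC trend of each library removed, neither Foxo1 (0.20, adjusted p = 0.071) nor Irs1 (0.12, adjusted p = 0.203) was called. Gcgr was lower by a log2 fold change of -1.36 (SE 0.0881, adjusted p = 1.33e-14, limma). The median over all tested genes was itself 0.54, and under scaling to a common upper quartile it was 0.14, with 5 genes of the set higher and 2 lower. No share of all genes is given for that scaling here or below, so counts under it cannot be read against all genes. Under that scaling Irs1 (-0.03) and Foxo1 (-0.21) turned direction and were no longer called, and Akt2 was called as lower (-0.42).

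Markers of blood cells were high in the early group. The summed FPKM of the 8 measured erythroid markers went from between 127300 and 185200 at GD17.5 to between 22600 and 32110 on Day 5 and 650 to 714 on Day 60. That of 8 neutrophil and myeloid markers went from between 1862 and 3548 to between 1.39 and 2.74. Over the 12 age means the log2 level of Igf1r followed the erythroid sum with r = 0.949, that of Akt1 with r = 0.953, that of Foxo3 with r = 0.856 and that of Irs2 with r = 0.835, while Gcgr had r = -0.805. Other sums gave similar values, so these are not particular to erythroid markers. With the neutrophil and myeloid sum, r was 0.939 for Igf1r, 0.977 for Akt1, 0.782 for Foxo3, 0.904 for Irs2 and -0.689 for Gcgr. With the sum of proliferation markers it was 0.908, 0.952, 0.788, 0.838 and -0.748 in the same order. These are descriptions over 12 points that share their libraries, and the part of blood cells in these differences was not tested.

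In suckling as a whole, Days 1 to 20 against Days 25 to 60, 8 genes were higher (68.1% of all genes, and 8 against 58.2% with no filter), Gcgr was lower (11.7%, and 8.28% with no filter) and Akt2 was not called (log2 fold change 0.05, adjusted p = 0.589, limma). Insr was among the 8 (0.46, adjusted p = 0.00318) and so was Foxo1 (0.60, adjusted p = 0.000239). With scaling to a common upper quartile 6 genes were higher and 2 lower, Insr (adjusted p = 0.186) and Foxo1 (adjusted p = 0.0539) were not called, and Akt2 was lower (-0.34).

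From GD17.5 to birth 1 gene of the 10 was higher (13.1% of all genes), Gcgr, and 3 were lower (41.4%), Igf1r, Foxo3 and Pik3r1, while the median over all genes was -0.29. With no filter the same 4 genes were called, against 10.1% of all genes higher and 28.6% lower. With a common upper quartile the median was -0.08, and 2 genes were higher, since Foxo1 was then called (0.77, adjusted p = 0.0219), and 2 were lower. From birth to Day 1, 4 were higher (23.7% of all genes), Insr, Irs1, Gcgr and Pik3r1, and none was lower (7.88%). With no filter 2 were higher (16.9%), Irs1 and Gcgr, and none lower (5.81%). Irs1 and Gcgr kept their calls with a common upper quartile, and Insr and Pik3r1 did not (adjusted p = 0.0962 and 0.0843). From Day 20 to Day 25, no gene of the set was higher (3.94% of all genes) and Foxo1 was lower (3.26%), and with no filter Foxo1 was again the one called (adjusted p = 0.0343, limma), beside 2.32% of all genes higher and 1.84% lower.

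Pairs of related genes were compared within each liver as the log2 ratio of FPKM + 1, in which the scale of a library cancels nearly in full only for genes well above 1 FPKM. Akt1 was 2.24-fold to 3.00-fold the level of Akt2 in FPKM at GD17.5 and 0.960-fold to 1.19-fold on Day 60. Its log2 ratio to Akt2 averaged 1.27 from GD17.5 to Day 5 and 0.24 from Day 25 to Day 60, a difference of 1.03 (exact permutation test over the 9 age means, two-sided, p = 0.00794, adjusted over 4 ratios 0.0159). The p of 0.00794 is the smallest that these splits of the ages can give. Irs2 was 3.25-fold to 11.4-fold Irs1 at GD17.5 and 0.527-fold to 1.53-fold on Day 60. Day 60 was the lowest of the later ages, since the median was 1.895-fold on Day 25, 2.85-fold on Day 30 and 3.55-fold on Day 45. The log2 ratio of Irs1 to Irs2 differed by -1.37 between the age groups (exact permutation p = 0.00794, adjusted 0.0159).

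The FOXO pair crossed. Foxo1 stood at 0.269-fold to 0.399-fold of Foxo3 at GD17.5 and at 5.12-fold to 5.29-fold on Day 20, an age in neither tested group. On Day 60 it was back at 2.21-fold to 3.40-fold. The difference of the log2 ratio between the age groups was -1.19 (exact permutation p = 0.0238, adjusted 0.0317). For Insr to Igf1r the ratio in FPKM went from between 1.96 and 2.57 at GD17.5 to between 40.7 and 75.9 on Day 60. On the log2(FPKM + 1) scale, where Igf1r is near 0, the difference of -0.42 missed the threshold (exact permutation p = 0.0952, adjusted 0.0952), and with a pseudocount of 0.1 it was -2.01 (adjusted p = 0.0159).

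**Figure D3:**
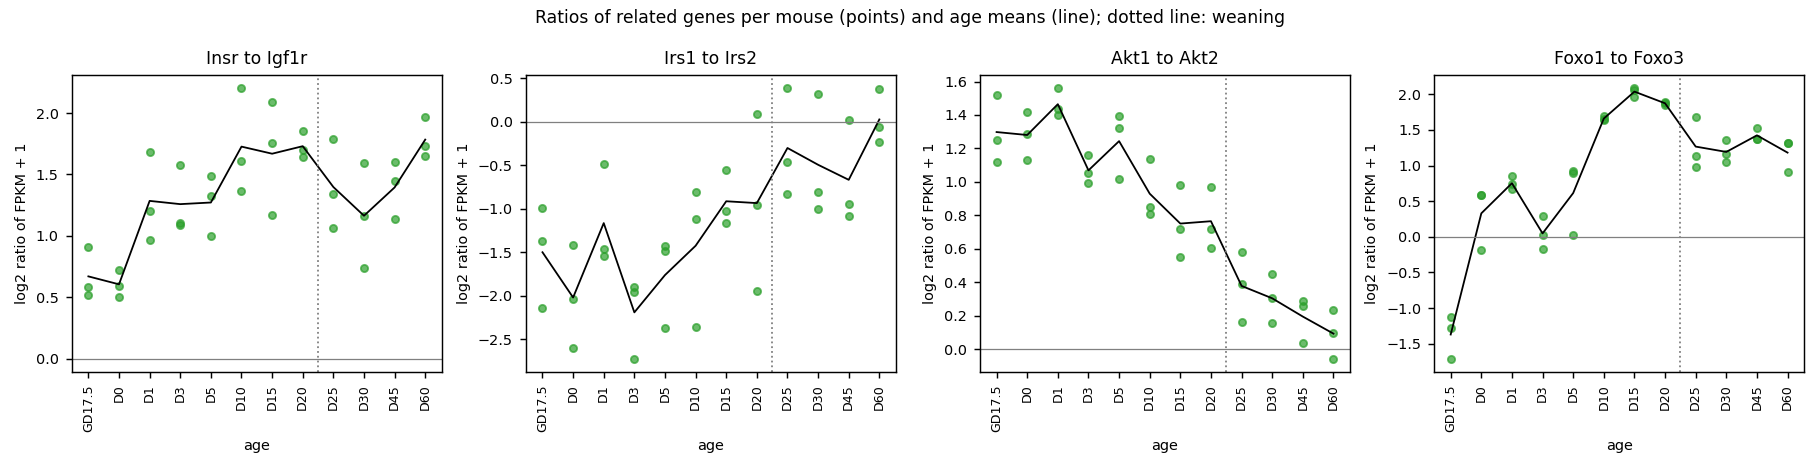
Log2 ratio of FPKM + 1 for 4 pairs of related genes in each liver (points) and its age mean (line) against age, with weaning as a dotted line. The ratio of Akt1 to Akt2 goes from a mean of 1.30 at GD17.5 to 0.09 on Day 60, and Foxo1 to Foxo3 from -1.37 at GD17.5 to 2.04 on Day 15 and 1.18 on Day 60.

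The rest of the pathway was described with a list of 89 tested genes, of which 80 changed in at least 1 age against Day 60 (90.7% of all genes did). Between GD17.5 to Day 5 and Days 25 to 60, 60 were higher (70.2% of all genes) and 17 lower (15.5%), with a median log2 fold change of 0.52 against 0.54 over all genes, and with a common upper quartile 40 were higher and 30 lower. All 9 receptor partners and adaptors and all 5 genes of the phosphoinositide 3-kinase group were higher (70.2% of all genes). With a common upper quartile 6 and 3 of them were higher, and none of them was called as lower. The docking proteins Dok1 (8.27 and 0.691 FPKM) and Dok4 (3.71 and 0.471 FPKM) and the leukocyte kinase subunit Pik3cd (3.24 and 0.381 FPKM) had the largest changes of these. Of 12 genes of the mTOR branch, 10 were higher, with 70.2% of all genes (4 higher and 1 lower with a common upper quartile), led by the ribosomal protein Rps6 (log2 fold change 1.78) and the mTOR complex subunit Mlst8 (1.47). Dok1, Dok4, Pik3cd and Mlst8 averaged under 1 FPKM after weaning and passed the filter through earlier ages. A gene that enters in this way must be higher early. The counts of these groups, like the share of all genes, are thus in part set by the filter.

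Inhibitors of insulin signalling were split, with 8 of 15 higher and 5 lower (70.2% and 15.5% of all genes), and 6 higher and 7 lower with a common upper quartile. Grb10, an imprinted adaptor that binds and restrains the insulin and IGF1 receptors, stood at 34.6 FPKM from GD17.5 to Day 5 and at 0.479 FPKM from Day 25 to Day 60 (log2 fold change 4.56). Inpp5d, a phosphatase of blood cells that removes the lipid made by phosphoinositide 3-kinase, was at 7.13 and 0.792 FPKM. Both averaged under 1 FPKM after weaning and passed the filter through earlier ages, so no p is given for these early against late differences. Among the inhibitors, Grb14, an adaptor related to Grb10, rose from birth to Day 1 (3.55 and 12.3 FPKM, log2 fold change 1.55).

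Downstream of Gcgr, 12 of 19 genes of the cyclic AMP branch were higher from GD17.5 to Day 5 and 3 were lower (70.2% and 15.5% of all genes), while with a common upper quartile 8 were higher and 8 lower. The regulatory subunit Prkar2b of protein kinase A (6.17 and 0.0386 FPKM) and the adenylyl cyclase Adcy7 (3.38 and 0.274 FPKM) had the largest changes. Both averaged under 1 FPKM after weaning and passed the filter through earlier ages. The catalytic subunit Prkaca fell from GD17.5 to birth (17.2 and 8.44 FPKM) and rose to Day 1 (12.3 FPKM), the latter not called with a common upper quartile (adjusted p = 0.0722). Creb3l3, a liver transcription factor of fasting, rose with Gcgr at both steps, from 15.5 FPKM at GD17.5 to 62.3 at birth and 153.5 on Day 1.

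Target genes of both hormones changed at birth. At GD17.5 the mean of glucose-6-phosphatase (G6pc) was 0.0399 FPKM and that of phosphoenolpyruvate carboxykinase (Pck1) 0.226 FPKM, and at birth they were 109.5 and 110.0 FPKM. Both rises were called (log2 fold changes 6.34 and 4.94, adjusted p = 8.26e-13 and 1.73e-06, limma), and 6 of 10 target genes rose at that step (13.1% of all genes) and none fell (41.4%). Igfbp1, a binding protein of insulin-like growth factors that FOXO factors induce, was at 641 FPKM from GD17.5 to Day 5 and 23.4 FPKM after weaning.

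Across weaning 7 of the 89 genes were called, close to the share of 7.19% of all genes, so the count does not set the list apart. Igfbp1 fell from 155 to 19.4 FPKM (adjusted p = 8.34e-06, limma) and Pck1 from 527 to 97.3 FPKM (adjusted p = 0.0255) between Day 20 and Day 25. ATP citrate lyase (Acly), an AKT substrate of fat synthesis, rose from 13.98 to 68.0 FPKM (adjusted p = 9.15e-05, limma). The inhibitors Grb10 (2.31 and 0.831 FPKM, adjusted p = 0.043, limma) and Trib3 (2.67 and 1.36 FPKM, adjusted p = 0.00919) fell. The count of 7 was 3 without Day 20 mouse 2, and 2 without Day 20 mouse 3 or Day 25 mouse 2.

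The ligands gave reads in some livers. Ins2 was above 1 FPKM in 19 of the 36 livers, and the same 19 livers had a summed level of 7 exocrine pancreas genes above 100 FPKM, from 182 upward. In the other 17 livers that sum did not exceed 37.8 FPKM, and Ins2 was at most 0.183 FPKM. All 3 livers of GD17.5 were listed at 0 for Ins1 and Ins2. At birth the 3 livers held 22.99, 7.52 and 41.4 FPKM of Ins2, with pancreas sums of 859, 514 and 4795 FPKM. On Day 60 mouse 1 had 34.5 FPKM of Ins2 and a pancreas sum of 20310 FPKM, whereas mice 2 and 3 were listed at 0 with sums of 4.57 and 4.605 FPKM. Ins1 reached 33.3 FPKM and the glucagon gene Gcg 2.15 FPKM, both in Day 15 mouse 3. Ins1 and Ins2 were thus called between GD17.5 and birth and between the early and late ages together with the pancreas genes, and the part of pancreatic RNA in these values was not tested.

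**Figure D4:**
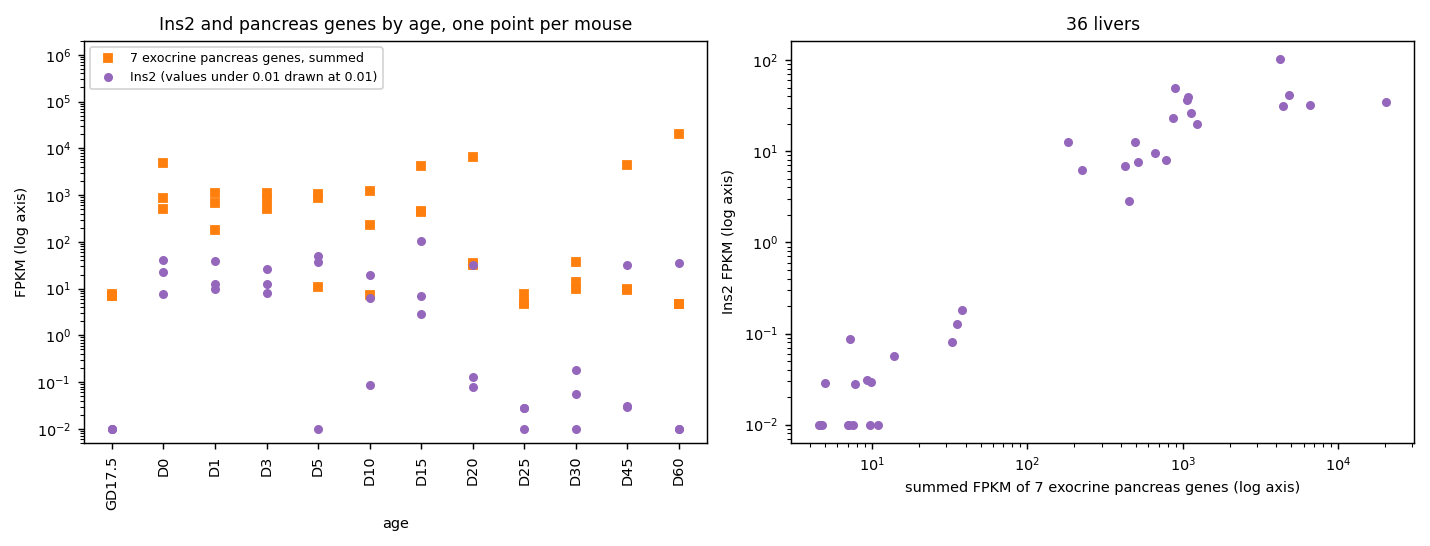
Left, FPKM of Ins2 (purple) and summed FPKM of 7 exocrine pancreas genes (orange) in each liver against age, and right, the same values of 36 livers against each other, all on log axes with Ins2 values under 0.01 drawn at 0.01. The livers fall into 19 with Ins2 above 1 FPKM and a pancreas sum of 182 FPKM or more and 17 with both lower.

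The spread of several genes within an age followed transcript length. Insr, Irs1, Foxo1, Foxo3 and Pik3r1 have longest coding transcripts of 5000 bases or more, from 5552 (Foxo1) to 9355 bases (Insr). In 33 of 36 livers their mean deviation from the age mean had the same sign as that of all 1620 tested genes of that length. The slope of deviation on length, in log2 units per doubling, was from -0.201 in Day 30 mouse 1 to 0.168 in GD17.5 mouse 1. Day 30 mouse 1, Day 25 mouse 2 and Day 45 mouse 3 had the lowest slopes, and they held the lowest Foxo1 (1.63, 1.72 and 2.31 FPKM) and Foxo3 (0.268, 0.374 and 0.280 FPKM) of all livers. All 3 livers of birth had a negative slope against the mean of all 36 livers (-0.0993 to -0.0593). The part of length in the differences between ages was examined with values corrected for it, an alternative chosen after the data had been seen: with the length and GC trend of each library removed, Foxo1 across weaning had a log2 fold change of -1.02 (adjusted p = 0.00166, limma), Insr from birth to Day 1 had 0.66 (adjusted p = 0.00398) and Foxo3 from GD17.5 to birth had -1.08 (adjusted p = 0.000756). Pik3r1 then had -0.59 from GD17.5 to birth (adjusted p = 0.0141) and 0.62 from birth to Day 1 (adjusted p = 0.0163). From GD17.5 to birth Foxo1, which was not called before, was then higher (0.70, adjusted p = 0.00729). The higher levels of Foxo1 and Irs1 from GD17.5 to Day 5 than from Day 25 to Day 60 were no longer called with it, as given above.

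**Figure D5:**
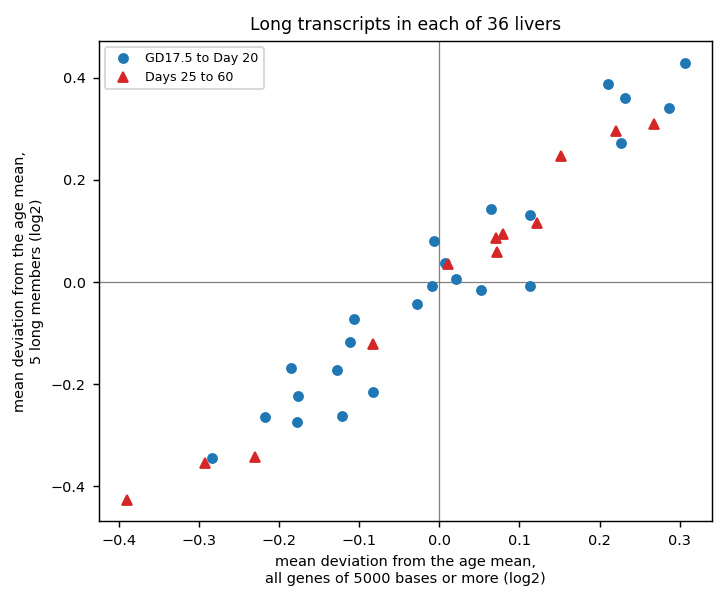
Mean deviation from the age mean, in log2 units, of the 5 long genes of the set (vertical axis) against that of all tested genes of 5000 bases or more (horizontal axis) in each of 36 livers, as blue circles up to Day 20 and red triangles from Day 25. The points run along the diagonal, with the same sign in 33 of 36 livers.

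The genes whose age means were most like those of each gene of the set were named by Pearson r of log2(FPKM + 1) over 12 age means, as a description. Gcgr was nearest to the cytochrome P450 gene Cyp2d10 (r = 0.989), 2310030G06Rik (0.982) and Coasy (0.975), an enzyme of coenzyme A synthesis. Igf1r was nearest to the amino acid transporter gene Slc7a6 (0.997), Sema4d (0.996) and Zcchc3 (0.993). Irs1 was nearest to Pyroxd1 (0.971) and the acyl-CoA thioesterases Acot4 (0.967) and Acot3 (0.965), and Irs2 to Rgl2 (0.964), Cd97 (0.964) and Kdm4b (0.963).

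Akt1 was nearest to Sp140 (0.995), the cytoplasmic actin Actg1 (0.992) and Gnb2 (0.992), and Akt2 to 2210016F16Rik (0.926), Mthfsd (0.916) and Rbm4 (0.910). Foxo3 was nearest to Ppp2r1b (0.991), Tprgl (0.991) and Ncoa4 (0.990), the receptor for the autophagy of ferritin. Foxo1 had the least close neighbours, Nampt (0.888), which makes a precursor of NAD, the interleukin 6 receptor Il6ra (0.885) and Cyth1 (0.870). Insr was nearest to Numb (0.947), Vegfa (0.939) and Lnx2 (0.937), and Pik3r1 to Sept2 (0.986), Ttc3 (0.983) and Stx17 (0.975). Among the 10 genes themselves the closest pairs were Igf1r with Akt1 (r = 0.943), Insr with Irs1 (0.912) and Igf1r with Foxo3 (0.905), and Gcgr ran most against Foxo3 (-0.806).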

How the data were processed

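Total RNA of 36 livers (12 ages, 3 mice each, taken from the labels) was made into polyadenylated, paired-end libraries. The authors mapped reads to NCBI37/mm9 with TopHat (1.2.0 in the submitters' processing notes) and deposited FPKM values from Cufflinks (1.0.3) per gene symbol, with transcripts compared with Ensembl. Columns were matched to samples by title, and no column was left unused. Counts were not used here. From the steps of 2950 low genes, where 64.8% of low values lay within 0.1 of a whole fragment, relative depth was 0.894 to 1.22, and about 81.5 fragments per library, in units of 1000000, were estimated. Summed FPKM was 353712 to 450597, and replicates correlated with r of at least 0.971.

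Values were transformed to log2(FPKM + 1), and the 11149 genes whose mean reached 1 FPKM in 1 or more ages were fitted with limma 3.58.1 (R 4.3.3, moderated variances with a mean trend, 1 mean per age), with Benjamini-Hochberg adjustment over all genes. For a change in at least 1 age, the smallest p over the 11 comparisons with Day 60 was adjusted over all genes and comparisons. Ratios were tested with exact permutation over age means. The scripts were tested on simulated data. P-values of limma and of Dunnett's comparison measure the spread between mice of one age. Those of the exact permutation measure the spread between age means, and since the ages are ordered, a steady drift with age can by itself give a small p. Coordinates and transcript lengths are from GENCODE M1 (NCBIM37), promoters from RefSeq (GRCm38.p6). Sums, ratios and figures were made in Python 3.11.15 (matplotlib 3.10.9, scipy 1.17.1, pandas 2.3.3).

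The 10 genes, the pathway list and the marker lists were chosen with earlier results of these data known. All 10 genes are named, and of the pathway list up to 2 called genes with the largest change per role and comparison, though not every such gene is named. For each of the 10 genes the 3 nearest genes outside the set are named.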

Additional observations from a re-analysis of the deposited data

How the results depend on the processing

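Results were recomputed with other pseudocounts (0.1), filters (none, or 5 FPKM) and scalings (upper quartile, or a sum of 1000000), without the variance trend, with a replicate block, and with each mouse left out in turn. Removing the GC and length trend and leaving out the 3 libraries of lowest length slope were chosen after seeing the data. Changes whose cause is not named below had a cause that was not tested. With the filter at 5 FPKM only 6 of the 10 genes and 51 of the list were tested, so 4 of the 10 were called in at least 1 age, 5 in each of the age-group comparisons, 2 from GD17.5 to birth and 1 from birth to Day 1, and 47 of the list in at least 1 age, 45 in GD17.5 to Day 5 against Days 25 to 60, 41 in Days 1 to 20 against Days 25 to 60 and 28 from GD17.5 to birth. Of the 10 genes, 2 were called from GD17.5 to birth with a pseudocount of 0.1, and 2 from birth to Day 1 with no filter or a common upper quartile. Of the list, 29 were called from birth to Day 1 with the GC and length trend removed, and across weaning 3 with no filter and 2 without the 3 libraries. Dunnett's comparison gave 6 of the 10 genes changed in at least 1 age.

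A common upper quartile turned the direction of GD17.5 to Day 5 against Days 25 to 60 for Insr (-0.13), Irs1 (-0.0308), Foxo1 (-0.21) and Akt2 (-0.42), of Days 1 to 20 against Days 25 to 60 for Akt2 (-0.34), of GD17.5 to birth for Akt1 (0.13) and Akt2 (0.13), and of birth to Day 1 for Foxo1 (-0.13) and Akt1 (-0.11). Removing the GC and length trend turned Insr from GD17.5 to birth (0.0234), Irs1 across weaning (0.00898), Foxo1 from birth to Day 1 (-0.00706) and Akt2 in both age-group comparisons (-0.0195 and -0.10). Akt2 in suckling was also -0.0108 with a sum of 1000000 and -0.0147 without the 3 libraries, and Foxo1 from birth to Day 1 was -0.00805 with a pseudocount of 0.1. The ratio of Insr to Igf1r passed the threshold with a pseudocount of 0.1 (-2.01), a common upper quartile (-0.71), a sum of 1000000 (-0.99), Days 10 to 60 as the later group (-0.53) and without the 3 libraries (-0.54).

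With 1 mouse left out, 5 to 9 of the 10 genes were called in at least 1 age, 7 to 10 in GD17.5 to Day 5 against Days 25 to 60, 8 to 9 in Days 1 to 20 against Days 25 to 60, 1 to 4 from GD17.5 to birth (1 without GD17.5 mouse 1, where Igf1r no longer passed the filter), 2 to 4 from birth to Day 1 (2 without Day 0 mouse 2 or 3 or Day 1 mouse 1 or 2) and 0 to 1 across weaning (0 without Day 20 mouse 1 or 3 or Day 25 mouse 2). Calls over all 11 ages against Day 60 numbered 37, and 31 to 39 with 1 mouse left out. Of the list, 8 to 19 were called from birth to Day 1 (15 with all mice, 8 without Day 0 mouse 3 and 9 without Day 1 mouse 1) and 2 to 8 across weaning. The difference of the Insr to Igf1r ratio was -0.47 to -0.36 and was called without Day 30 mouse 1. Single values that changed sign without being called were, from birth to Day 1, Irs2 (-0.38 to 0.15), Foxo1 (-0.20 to 0.28), Akt1 (-0.059 to 0.19) and Akt2 (-0.27 to 0.00212), and from GD17.5 to birth Akt2 (-0.27 to 0.00228). Mice of one number at different ages were different animals. Their deviations correlated with a median r of 0.126 and a lowest r of -0.680, against a median r of -0.0476 for differently numbered mice. Whether libraries of one number share a step of handling is not given by the labels and was not tested. The replicate block gave 7 genes changed in at least 1 age and 10 in GD17.5 to Day 5 against Days 25 to 60 (9 higher and 1 lower), where Insr and Akt2 were added. Depth limits Igf1r most, with an estimated 7 to 386 fragments per library, and the other 9 genes had 35 or more.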
